A study of Mus musculus with 18 samples.

Results

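The genes described here are 41 mouse genes of mitosis and the G2/M phase, the stretch of the cell cycle in which a cell with replicated DNA prepares to divide and then divides. They were taken by gene name and sorted by known role into 9 groups that run from cyclin-dependent kinase 1 to the proteins of cytokinesis. These genes and the other gene lists below were chosen with earlier results of these data known. All 41 were measured in both long RNA assays, among 14083 RefSeq genes tested in mRNA sequencing and 9978 in RNAome sequencing. Each gene was represented by 1 RefSeq transcript, and 9 of the 41 had several to choose from.

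All samples were C57BL/6 mouse embryonic stem (ES) cells at passage 19 to 22. All of them, controls included, were deficient in HPRT, an enzyme of purine salvage. The cisplatin group received cisplatin at 2.5 µM, a drug whose platinum crosslinks DNA bases, and the control group received the vehicle DMSO. How long the drug acted is not stated in the labels. Before the experiment the cells were kept on feeder-coated plates and then on gelatin, so remaining feeder cells could be present. Each group had 3 samples, named by the codes in their titles: 8.3.3, 8.4.3 and 8.5.3 for cisplatin, and 8.4.16, 8.5.16 and 8.6.16 for control. RNA of the same 6 samples went into both assays. mRNA sequencing used a kit that selects poly(A) RNA, and RNAome sequencing read fragmented total RNA from which rRNA had been removed. Separate cultures are not named in the labels for samples of 1 group. The p-values therefore measure the spread among these samples only, and that spread may be technical.

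As background, mitosis is driven by CDK1 bound to cyclin B, which CDC25 phosphatases switch on and the anaphase-promoting complex switches off by marking cyclin B for destruction. Polo-like and Aurora kinases, kinesin motors, kinetochores and condensins then build the spindle, sort the chromosomes and split the cell. Most of these genes are transcribed in a wave late in the cycle, under the MuvB complex joined to B-Myb and FOXM1, and are held down by the DREAM complex when cells leave the cycle or when p53 and p21 are active. Their promoters are known for a cell cycle genes homology region (CHR), with the core letters TTTGAA, and for CCAAT boxes, which bind NF-Y. Mouse ES cells cycle fast and express these genes strongly.

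Depth differed greatly between the assays. Table totals were 20365963 to 31604098 counts per mRNA library and 43404675 to 94373096 per RNAome library, but the 41 genes took 73243 to 136110 of the former and only 5092 to 18290 of the latter. On the first principal component of mRNA sequencing, which held 71.4% of the variance, the cisplatin libraries lay on 1 side and the controls on the other. In RNAome sequencing, the first component (38.4%) also held the groups on separate sides. The cisplatin libraries lay at -14.57 to -11.65, and controls 8.5.16 and 8.6.16 at 2.63 and 5.41. Control 8.4.16 stood apart from all of these, at 31.18. Most RNAome counts and medians of the 41 genes and of the gene lists are therefore also given without that library. Hprt, which encodes the enzyme these cells are deficient in, had 0.764 to 1.17 CPM in the 6 mRNA libraries. CPM is the count relative to the scaled library size.

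The promoters come first, because they are the sequence feature for which these genes are best known. RefSeq promoters of assembly GRCm38.p6, from 250 bases before to 50 bases after the start site, were at hand for 34 of the 41 genes. Those of Ccna2, Cdc25c, Aurkb, Bora, Kif20a, Incenp and Tpx2 were not analysed here. The CHR letters TTTGAA, or TTCAAA on the other strand, occurred in 25 of 34 promoters (73.5%), against 20.2% of the 27025 gene symbols in the table. Within 50 bases of the start site they occurred in 22 of 34 (64.7%), against 5.72% of all symbols. The letters CCAAT, or ATTGG on the other strand, occurred in 27 of 34 (79.4%) against 41.1%, and 22 promoters (64.7%) held both motifs against 8.97%. The motifs share no letters in the sequences printed below. Among genes tested in mRNA sequencing, 14.0% had TTTGAA in this window. A match is a description of letters, and binding was not measured.

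**Figure D1:**
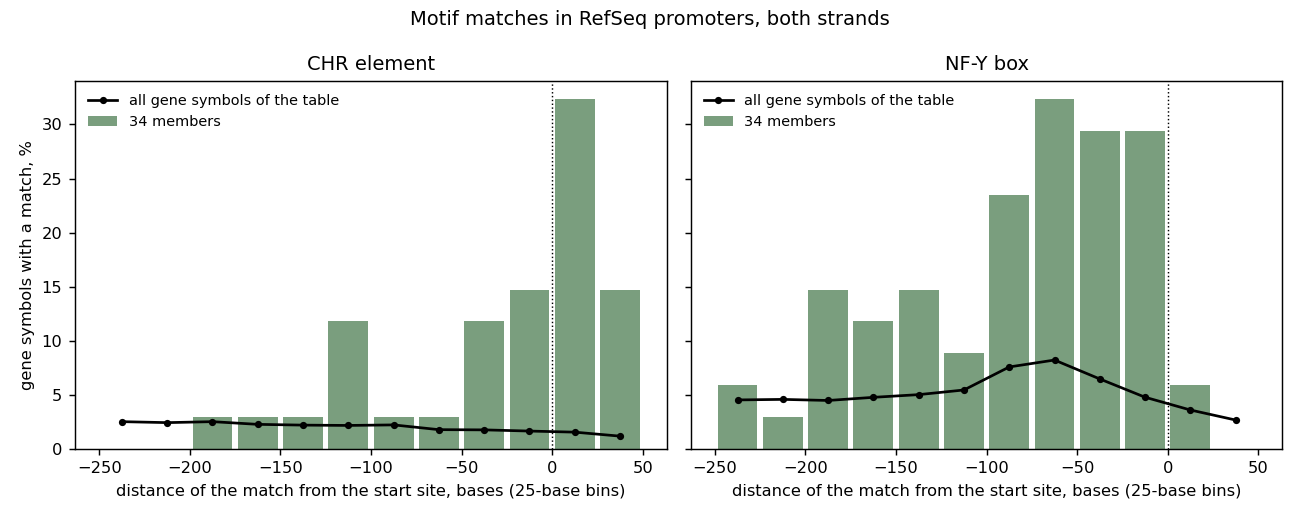
Share of promoters with a match, in percent, by distance of the match from the start site in 25-base bins, for the CHR element (left) and the NF-Y box (right). Bars are the 34 members with a promoter and black points all 27025 gene symbols. The CHR bar is tallest just after the start, at 32.4% against 1.54%, and the NF-Y bars are tallest in the 75 bases before it, at 29.4% to 32.4%.

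Below are the 150 bases before the start site of 6 genes that fell after cisplatin, in order of adjusted p, printed to show the letters and spacing of both motifs. Capitals mark TTTGAA or CCAAT on either strand. Only fallen genes with TTTGAA wholly within these bases were eligible, so that each holds it is fixed by the choice. Other members have it after the start instead, beginning at 30 in Plk1 and at 5 in Racgap1.
Ect2 (chr3:27153855-27154004, minus strand): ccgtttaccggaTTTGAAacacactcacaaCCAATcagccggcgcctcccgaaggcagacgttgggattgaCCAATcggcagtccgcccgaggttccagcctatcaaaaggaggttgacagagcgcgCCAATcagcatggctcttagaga
Mki67 (chr7:135716380-135716529, minus strand): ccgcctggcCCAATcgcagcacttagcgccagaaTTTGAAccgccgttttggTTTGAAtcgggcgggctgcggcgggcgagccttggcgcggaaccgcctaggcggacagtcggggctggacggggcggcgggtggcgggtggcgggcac
Ncapd2 (chr6:125191587-125191736, minus strand): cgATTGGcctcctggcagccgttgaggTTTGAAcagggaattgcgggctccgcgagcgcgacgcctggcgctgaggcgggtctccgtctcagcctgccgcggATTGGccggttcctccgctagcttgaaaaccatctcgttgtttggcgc
Top2a (chr11:99024190-99024339, minus strand): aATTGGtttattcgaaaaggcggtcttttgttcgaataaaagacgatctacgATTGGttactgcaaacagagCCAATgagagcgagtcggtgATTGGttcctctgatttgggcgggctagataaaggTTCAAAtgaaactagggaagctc
Kif11 (chr19:37376232-37376381, plus strand): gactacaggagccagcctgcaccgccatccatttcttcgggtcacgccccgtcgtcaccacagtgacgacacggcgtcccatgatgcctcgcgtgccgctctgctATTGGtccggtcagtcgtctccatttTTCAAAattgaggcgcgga
Cdk1 (chr10:69352913-69353062, minus strand): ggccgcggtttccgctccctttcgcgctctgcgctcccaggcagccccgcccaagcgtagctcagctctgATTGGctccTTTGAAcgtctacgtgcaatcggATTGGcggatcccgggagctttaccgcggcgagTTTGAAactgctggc

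Within these printed bases, counted from the start site, the match of Top2a to the CHR letters began at -23 and that of Kif11 at -19, each within 50 bases of the start. Those of Ect2 and Ncapd2 lay farther upstream, beginning at -138 and -123, and Ect2 had a further match beginning at 15 after the start, beyond the printed bases. Mki67 and Cdk1 each held a pair of matches, beginning at -116 and -98 in Mki67 and at -71 and -15 in Cdk1. The 9 promoters without TTTGAA in this window were those of Birc5, Bub1, Ccnb1, Cdc25b, Cenpe, Melk, Nek2, Nusap1 and Pttg1. In mRNA sequencing the 25 genes with the letters had a median log2 change of -0.40, and the 9 without them -0.35. Both medians lay near that of all 41 genes.

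In mRNA sequencing nearly the whole set was lower after cisplatin: 39 of the 41 genes fell, Aurkb rose, and Cdc25b did not pass the test. Of all genes tested, 19.2% fell and 18% rose. Because the 41 were chosen with earlier results of these data known, this contrast is a description and no test of the set. In those 39 genes every cisplatin library lay below every control library, a pattern seen in 23.9% of all genes. The median log2 fold change was -0.38, against 0.01 for all genes, with single genes between -0.85 and 0.17. Summed over the 41 genes, the level was 7151, 7172 and 7152 CPM in the cisplatin libraries and 9638, 9490 and 9194 CPM in the controls, or 7158 ± 11.8 against 9441 ± 226.1 (mean ± SD, n = 3). The groups did not overlap. In bulk RNA, fewer cells in G2/M and less RNA per such cell cannot be told apart.

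**Figure D2:**
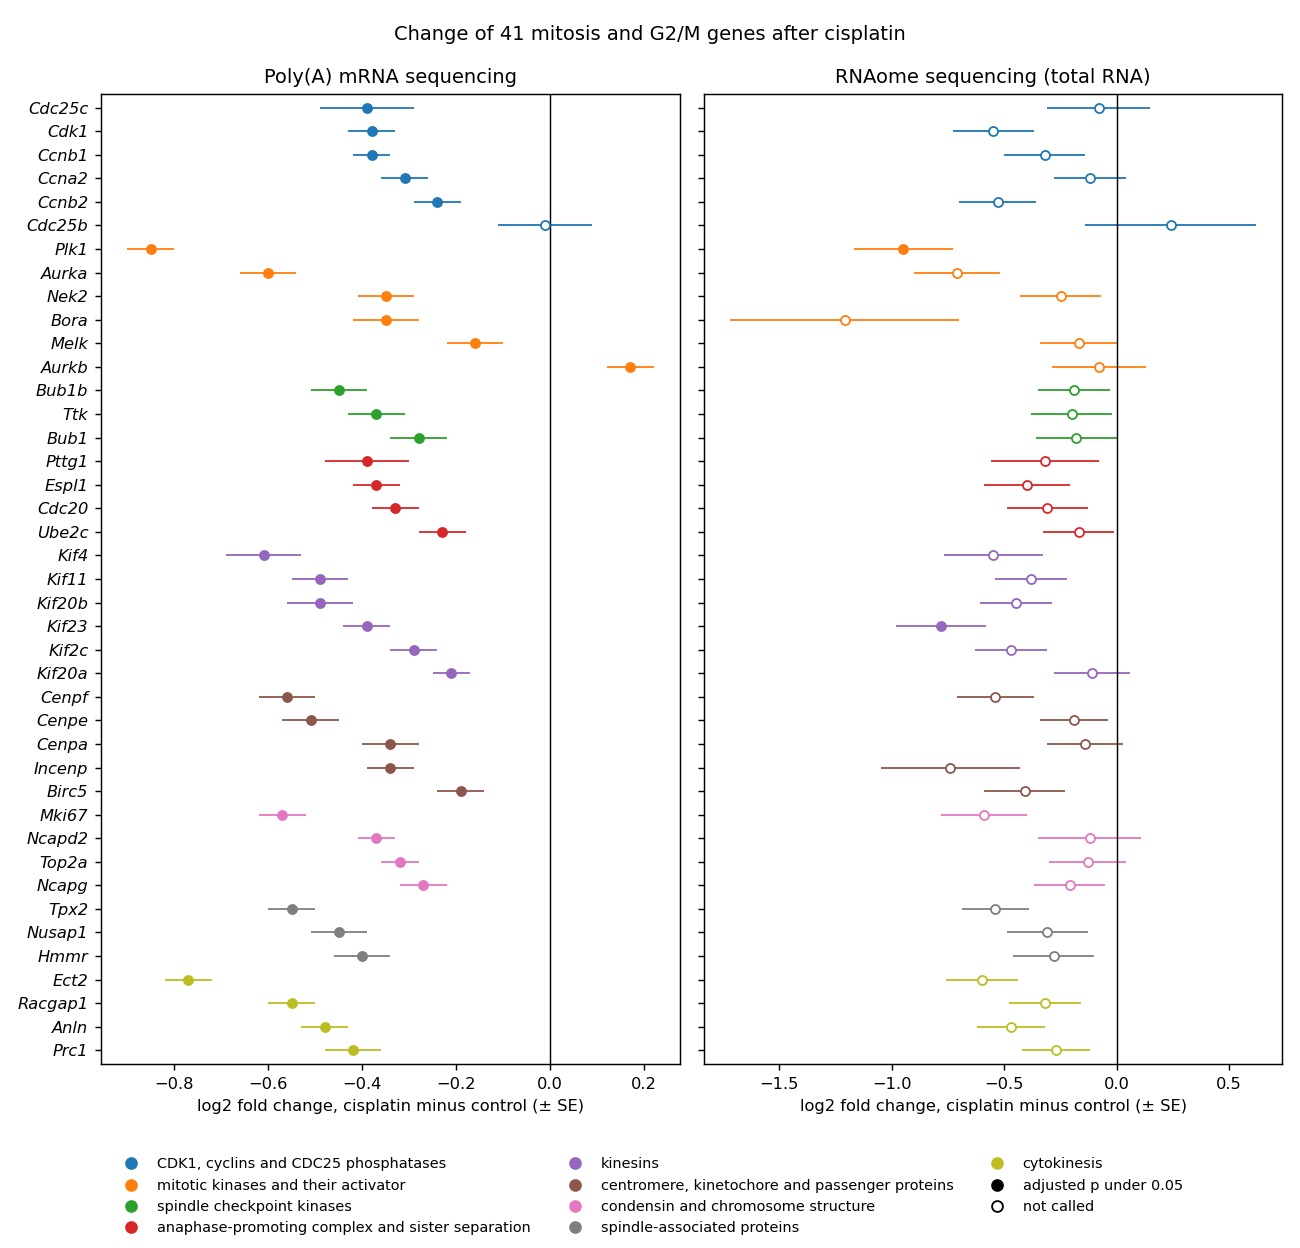
Log2 fold change (cisplatin minus control, horizontal axis) with its standard error for the 41 genes, sorted by role and then by mRNA change, in mRNA sequencing (left) and RNAome sequencing (right, wider axis). Filled points passed an adjusted p of 0.05: all genes but Cdc25b on the left, with Aurkb alone to the right of 0, and only Plk1 and Kif23 on the right.

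Of the CDK1 engine, 5 of 6 genes fell, with a median of -0.35. Ccnb1 encodes cyclin B1, the partner that activates CDK1 at mitotic entry. It stood at 335.3, 338.2 and 321.7 CPM after cisplatin and at 439.7, 430.9 and 428.7 CPM in controls. The groups were far apart relative to their spread, and the log2 change was -0.38 ± 0.04 (SE, adjusted p = 1.09e-05). Cdk1, the kinase itself, had 159.2, 164.5 and 155.9 CPM after cisplatin and 214.8, 212.3 and 199.5 CPM in controls, also without overlap (-0.38 ± 0.05, adjusted p = 4.06e-05). Cyclin and kinase thus stood at about the same share of control, 76.6% and 76.5%. Ccna2 (cyclin A2) and Ccnb2 (cyclin B2) fell by 0.31 and 0.24 on the log2 scale.

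The phosphatases that activate CDK1 differed from each other. Cdc25c fell, with a log2 change of -0.39 ± 0.10 (adjusted p = 0.00494). Cdc25b, located at chr2:131012685-131024233 (mm9, plus strand), had 28.0, 35.9 and 28.2 CPM after cisplatin and 33.1, 29.6 and 30.7 CPM in controls. Here the groups overlapped, and the highest library of all was a cisplatin one. Its log2 change was -0.01, with a 95% interval from -0.21 to 0.19 and an adjusted p of 0.948, so a small change in either direction fits these libraries. Levels per length used the longest annotated transcript of each gene, which need not be the one counted. On that scale Cdc25b was the lowest of the 41 genes in controls, at 10.1 ± 0.570 CPM per kb (SD, n = 3). Top2a was the highest, at 240.1 ± 6.24 CPM per kb, followed by Ccnb1 at 174.0 ± 2.35 and Cdc20 at 162.6 ± 3.87. This order could change with the lengths of the counted transcripts.

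Among the mitotic kinases and their activator, 5 of 6 genes fell and 1 rose, and this group held the extremes of the whole set. Plk1, polo-like kinase 1, acts in mitotic entry, spindle assembly and cytokinesis, and lies at chr7:129302951-129313389 (mm9, plus strand). It had 108.8, 113.7 and 113.8 CPM after cisplatin and 205.8, 207.3 and 192.5 CPM in controls. The cisplatin libraries were thus at 55.5% of control, and the log2 change of -0.85 ± 0.05 was the lowest of the 41 (adjusted p = 1.25e-07). Aurka, Aurora kinase A, works at centrosomes and on the spindle. Its libraries read 90.2, 107.6 and 95.1 CPM after cisplatin and 148.1, 143.8 and 151.4 CPM in controls, a clear gap, with a log2 change of -0.60 ± 0.06 (adjusted p = 8.56e-06). Bora, the cofactor through which Aurora A activates PLK1, and Nek2, a centrosomal kinase, each fell by 0.35. Melk, a kinase used as a proliferation marker, fell by only 0.16.

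Aurkb went the other way. It encodes Aurora kinase B, the enzyme of the chromosomal passenger complex, and lies at chr11:68859149-68865166 (mm9, plus strand). Its libraries held 106.4, 102.4 and 102.6 CPM after cisplatin and 92.7, 91.1 and 93.7 CPM in controls. Every cisplatin library was above every control, by a small margin: the log2 change was 0.17 ± 0.05 (95% interval 0.06 to 0.27, adjusted p = 0.0252). DESeq2 gave 0.15 with an adjusted p of 0.0851, and the call was also lost in 4 of the 6 fits that left out 1 library, namely those without cisplatin 8.3.3 or 8.4.3 and without control 8.4.16 or 8.5.16 (highest adjusted p 0.0857). The direction stayed the same in each of these fits. The partners of Aurora B in the passenger complex, Incenp and Birc5 (survivin), fell by 0.34 and 0.19.

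**Figure D3:**
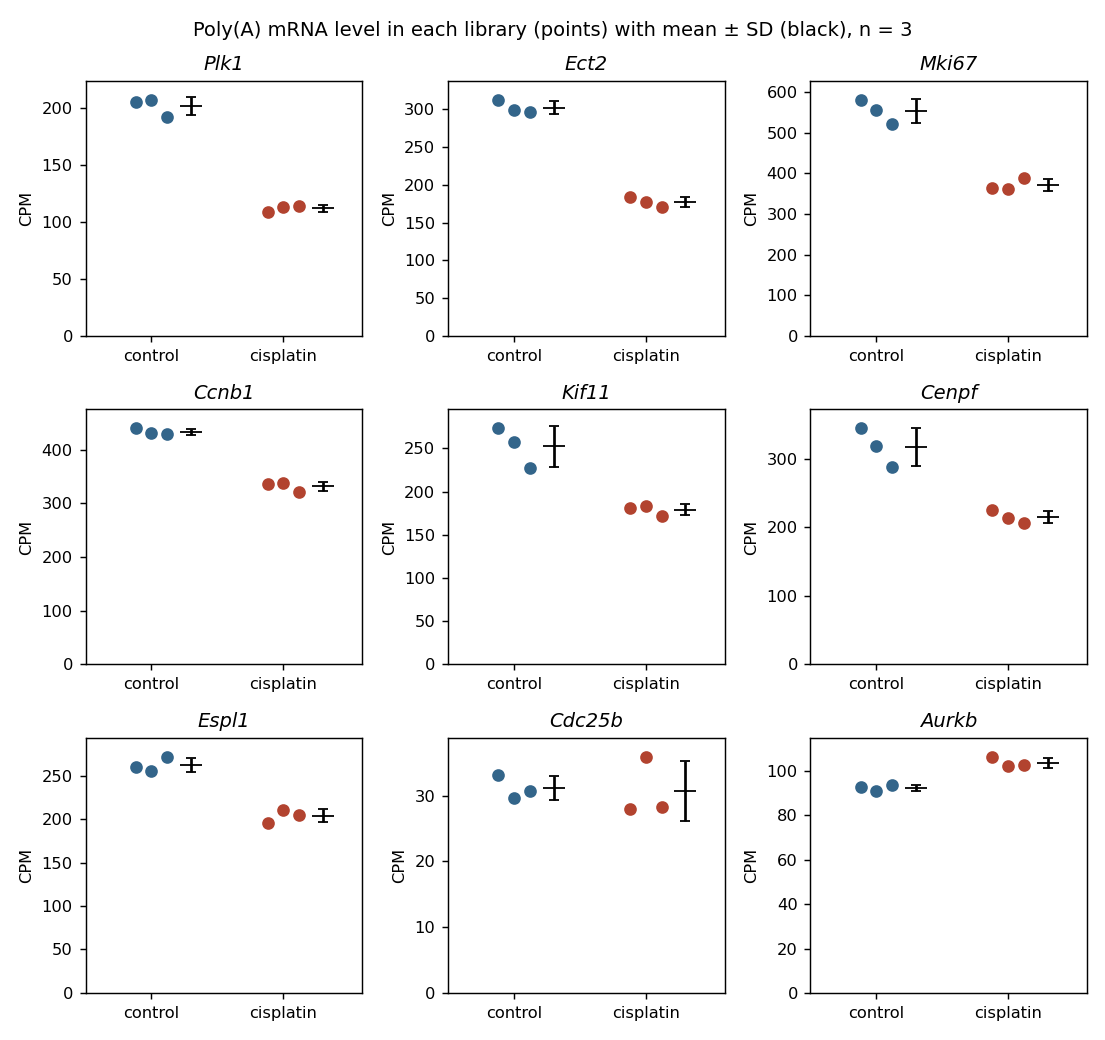
CPM in each of the 6 mRNA libraries (points; vertical axis from 0) with mean ± SD beside them (n = 3), for 9 genes. Control and cisplatin points separate in 8 panels, widest in Plk1 (about 202 against 112 CPM), they overlap in Cdc25b, and only in Aurkb are the cisplatin points the higher ones.

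All 3 spindle checkpoint kinases fell. These proteins hold anaphase back until each chromosome is attached to the spindle. Bub1b (BubR1) had 240.6, 274.9 and 258.7 CPM after cisplatin and 370.9, 349.9 and 335.0 CPM in controls, with no overlap (-0.45 ± 0.06, adjusted p = 3.10e-05). Ttk (MPS1), the kinase that starts the signal, had 80.6, 84.4 and 79.4 CPM against 108.8, 101.0 and 107.1 CPM (-0.37 ± 0.06, adjusted p = 1.87e-04). Bub1 fell by 0.28.

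The 4 genes of the anaphase-promoting complex and sister separation also fell. Cdc20 is the coactivator through which the complex recognises its mitotic targets. It read 228.5, 231.2 and 236.8 CPM after cisplatin and 288.5, 299.4 and 286.5 CPM in controls (-0.33 ± 0.05, adjusted p = 6.16e-05). Espl1, separase, is the protease that cuts cohesin at anaphase. Its values were 196.1, 210.9 and 204.4 CPM against 260.5, 255.8 and 271.8 CPM (-0.37 ± 0.05, adjusted p = 4.86e-05). Neither gene had overlapping groups. Pttg1 (securin), the inhibitor of separase, fell by 0.39, close to its target, and Ube2c, the ubiquitin-conjugating enzyme of the complex, fell by 0.23.

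All 6 kinesins fell, with a median of -0.44. Kif11 (Eg5) pushes the spindle poles apart. It had 181.4, 183.7 and 171.7 CPM after cisplatin and 273.0, 256.9 and 226.9 CPM in controls. The controls were more spread than the cisplatin libraries but lay wholly above them (-0.49 ± 0.06, adjusted p = 3.44e-05). Kif4, a chromosome-bound motor, had 53.5, 54.5 and 54.2 CPM against 88.6, 86.6 and 72.0 CPM, and again control 8.6.16 was the lowest control (-0.61 ± 0.08, adjusted p = 3.60e-05). Kif23 (MKLP1), the motor of the central spindle, had 108.1, 110.4 and 104.9 CPM against 146.6, 142.0 and 135.8 CPM (-0.39 ± 0.05, adjusted p = 6.17e-05). The remaining kinesins were Kif20b at -0.49, Kif2c at -0.29 and Kif20a at -0.21.

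The centromere, kinetochore and passenger group fell in 5 of 5 genes. Cenpf, a large kinetochore protein, had 225.5, 213.1 and 207.1 CPM after cisplatin and 344.6, 319.1 and 288.5 CPM in controls (-0.56 ± 0.06, adjusted p = 9.52e-06). Cenpe, the kinetochore motor that brings chromosomes to the metaphase plate, had 131.0, 131.1 and 132.7 CPM against 198.7, 189.8 and 173.7 CPM (-0.51 ± 0.06, adjusted p = 8.70e-06). In both genes the groups were separate, with the wider spread among controls. Cenpa, the centromeric histone H3 variant, fell by 0.34.

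Condensin and chromosome structure genes fell in 4 of 4 cases. Mki67 encodes Ki-67, the coat protein of mitotic chromosomes that serves as a proliferation marker. Its libraries held 363.7, 362.1 and 389.1 CPM after cisplatin and 581.1, 555.2 and 522.3 CPM in controls (-0.57 ± 0.05, adjusted p = 1.21e-06). Ncapd2, a subunit of condensin I, had 303.3, 313.6 and 315.3 CPM against 406.0, 406.6 and 388.4 CPM (-0.37 ± 0.04, adjusted p = 2.00e-05). Both were clearly separated by treatment. Its condensin I partner Ncapg fell by 0.27 and Top2a, the topoisomerase that untangles sister chromatids, by 0.32.

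The 3 spindle-associated proteins fell with a median of -0.45. Tpx2, which activates Aurora A on microtubules, had 190.7, 196.7 and 189.7 CPM after cisplatin and 296.4, 276.2 and 272.8 CPM in controls (-0.55 ± 0.05, adjusted p = 1.47e-06). Nusap1, a microtubule-bundling protein, had 109.2, 113.5 and 117.6 CPM against 158.6, 162.6 and 144.2 CPM (-0.45 ± 0.06, adjusted p = 3.83e-05). Neither overlapped. Hmmr, a spindle pole protein, fell by 0.40.

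The cytokinesis group had the lowest median of the 9, -0.52, and fell in 4 of 4 genes. The order of group medians was not tested. Ect2, at chr3:26996144-27052800 (mm9, minus strand), is the exchange factor that switches on RhoA at the cleavage site. It had 183.4, 177.5 and 170.5 CPM after cisplatin and 312.6, 298.6 and 296.0 CPM in controls. That is 58.6% of control, second only to Plk1 among the 41 (-0.77 ± 0.05, adjusted p = 1.28e-07). Racgap1, which recruits ECT2 to the central spindle together with KIF23, had 97.9, 98.7 and 93.2 CPM against 142.1, 140.1 and 143.1 CPM (-0.55 ± 0.05, adjusted p = 2.46e-06). Anln (anillin), the ring scaffold, fell by 0.48 and Prc1, the bundler of the central spindle, by 0.42.

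Strand-specific counting is not stated in the sources used here. Exons of Ccna2, Cdc25b, Cdc20, Ube2c, Kif20a, Kif4, Ncapg and Nusap1 overlap exons of a gene on the opposite strand, and a small nucleolar RNA gene overlaps Top2a on the same strand. The values of these 9 genes are uncertain to that extent.

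RNAome sequencing of the same RNA gave changes in the same direction for nearly all of the set, at much lower depth. Of the 41 genes, 40 had a negative log2 change, with a median of -0.32 against -0.0027 for all genes. Only 2 passed the test as lower, against 1.07% of all genes, and 0 as higher, against 0.972%. At an unadjusted p under 0.05 there were 18 of 41, against 1378 of all 9978 genes. DESeq2 called 0 of the 41 lower and 0 higher. In 18 genes every cisplatin library lay below every control, against 9.14% of all genes. Summed over the set, the level was 793.0, 808.6 and 817.2 CPM after cisplatin and 962.6, 1068 and 1020 CPM in controls, again without overlap (806.3 ± 12.3 against 1017 ± 52.8, SD, n = 3). The median standard error of a member was 0.18 here and 0.05 in mRNA sequencing.

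Plk1 was one of the 2 called genes. It had 2.39, 2.61 and 2.82 CPM after cisplatin and 4.35, 4.75 and 5.75 CPM in controls, a log2 change of -0.95 ± 0.22 (adjusted p = 0.0265) resting on 259 counts in all. Kif23 had 4.43, 5.13 and 6.64 CPM against 10.6, 9.50 and 7.56 CPM (-0.78 ± 0.20, adjusted p = 0.0485). Without control 8.4.16, 3 genes were called lower, against 105 of all 10427 genes. They were Plk1 (-1.01, adjusted p = 0.0234), Cdk1 (-0.70, adjusted p = 0.0341) and Ect2 (-0.67, adjusted p = 0.0339). An unadjusted p under 0.05 was seen in 21 members, against 1325 of all genes. In that fit 39 were negative, and the median was -0.35 against 0.01. Kif23 was then at -0.69 (adjusted p = 0.116). Of the other libraries, leaving out control 8.6.16 or either of the cisplatin samples 8.3.3 and 8.4.3 brought the count to 0. Leaving out control 8.5.16 brought it to 1, which was neither Plk1 nor Kif23, against 124 of all 10590 genes. Leaving out cisplatin 8.5.3 brought it to 3, against 100 of all 10491 genes.

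Several genes came close to the threshold with all 6 libraries. Ect2 had 19.9, 22.6 and 19.6 CPM after cisplatin and 28.2, 34.6 and 31.3 CPM in controls (-0.60 ± 0.16, adjusted p = 0.0574). Aurka had 9.15, 8.93 and 8.82 CPM against 12.7, 11.4 and 19.7 CPM (-0.71 ± 0.19, adjusted p = 0.0719), and Tpx2 had 22.0, 21.8 and 19.5 CPM against 30.8, 30.5 and 30.9 CPM (-0.54 ± 0.15, adjusted p = 0.0796). In each of these the groups were apart. The 2 genes that did not fall in mRNA sequencing did not pass here either: Aurkb had 4.60, 4.95 and 4.64 CPM against 3.40, 5.87 and 5.22 CPM (-0.08, 95% interval -0.49 to 0.34), and Cdc25b, with 130 counts in all, had 1.98, 1.72 and 1.73 CPM against 2.46, 0.559 and 2.02 CPM (0.24, 95% interval -0.50 to 0.98). Both overlapped. Without control 8.4.16, Aurka was at -0.78 (adjusted p = 0.0573), Tpx2 at -0.54 (0.0967), Aurkb at -0.23 (0.694) and Cdc25b at 0.53 (0.660). By role, all 4 cytokinesis genes and 5 of 6 kinesins had every cisplatin library below every control. The 3 checkpoint kinases and the 4 genes of sister separation all overlapped. Overlap was the usual state: of all 9978 genes, 8075 overlapped and 912 lay wholly below the controls. The difference between roles was not tested.

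The difference of the cisplatin effect between the assays was tested directly as an interaction. Of 13070 genes, 0 passed in edgeR (0%), with 770 at an unadjusted p under 0.05, and DESeq2 called 43 lower and 2 higher. None of the 41 genes passed in any fit. Their differences, RNAome minus mRNA, ran from -0.90 (Bora) to 0.33 (Cenpe), with a smallest adjusted p of 0.804. For Plk1 the difference was -0.10 (95% interval -0.47 to 0.27), and for Ect2 it was 0.17 (-0.12 to 0.47). For Aurkb, whose sign differed between the assays, it was -0.25 (-0.62 to 0.11). Such intervals leave room for moderate differences.

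The share of each gene that RNAome sequencing captured varied across the set. Levels were scaled separately in the 2 assays, so only the order between genes can be read. In controls the log2 CPM in RNAome minus that in mRNA sequencing had a median of -3.42 over the 41 genes and -3.69 over all genes. It was lowest for Ncapd2 (-5.39), Plk1 (-5.35) and Incenp (-5.31), and highest for Cdk1 (-1.01) and Birc5 (-1.77). Across the 41 genes it ran against the GC content of the transcript, with a Spearman correlation of -0.53, and across 9107 genes with -0.46. These are descriptions across genes of the same libraries.

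Intronic reads were read as a second measure, since introns are removed as a transcript matures. What share of them came from unspliced transcripts was not tested. In Kif11 they outnumbered the counts of its RefSeq transcript in each library of both assays. In mRNA library 8.3.3, for instance, there were 3651 against 2282. Such reads were available for 39 of the 41 genes in mRNA sequencing and 34 in RNAome sequencing after the filter on low counts. In mRNA sequencing 9 genes fell, against 6.32% of all genes with introns tested, and 0 rose in edgeR and in DESeq2, against 7.4%. At an unadjusted p under 0.05 there were 17 of 39, against 2093 of all 7922 genes. Every cisplatin library was below every control in 15 genes, against 13.9%, and the median was -0.27 against 0.0029. The genes that fell were Cdk1, Bub1b, Kif4, Mki67, Tpx2 and the 4 cytokinesis genes Ect2, Anln, Prc1 and Racgap1. Of these calls, that of Prc1 was lost in 7 alternatives (highest adjusted p 0.218). That of Mki67 rested on only 6, 8 and 10 counts after cisplatin and 16, 22 and 14 in controls.

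Intronic Ect2 had 38.5, 48.3 and 45.1 CPM after cisplatin and 79.7, 84.2 and 63.9 CPM in controls (-0.79 ± 0.17, adjusted p = 0.00140), close to the -0.77 of its mature transcript. Anln had 87.9, 75.7 and 100.2 CPM against 130.6, 147.2 and 132.1 CPM (-0.66 ± 0.13, adjusted p = 5.67e-04). Racgap1 had 95.7, 73.9 and 86.5 CPM against 115.0, 133.0 and 144.3 CPM (-0.63 ± 0.14, adjusted p = 0.00128). Groups were separate in all 3, and these are the 3 of 9 calls that stood in every alternative. Intronic Plk1 had 23.7, 16.4 and 16.3 CPM against 27.4, 37.2 and 25.3 CPM, apart but not past the test (-0.69 ± 0.26, adjusted p = 0.0718). For Aurkb the intronic change was 0.19 ± 0.16 (adjusted p = 0.465).

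In RNAome sequencing 0 of 34 genes passed in either direction by edgeR, and DESeq2 also called 0. An unadjusted p under 0.05 was seen in 6, against 742 of all 5636 genes tested, and the 6 included Bora, which was higher. Of all genes, 0.497% fell and 0.905% rose. Every cisplatin library was below every control in 8 genes, against 9.01% of all genes. The median was -0.28 against 0.01. Ect2 again lay without overlap, at 28.3, 35.7 and 23.8 CPM against 47.1, 40.3 and 38.9 CPM (-0.49 ± 0.18, adjusted p = 0.194). Without control 8.4.16, 0 of 36 genes passed, and 5 had an unadjusted p under 0.05, against 742 of all 6166 genes. The median stayed at -0.28, and Ect2 was at -0.44 (edgeR adjusted p = 0.353).

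**Figure D4:**
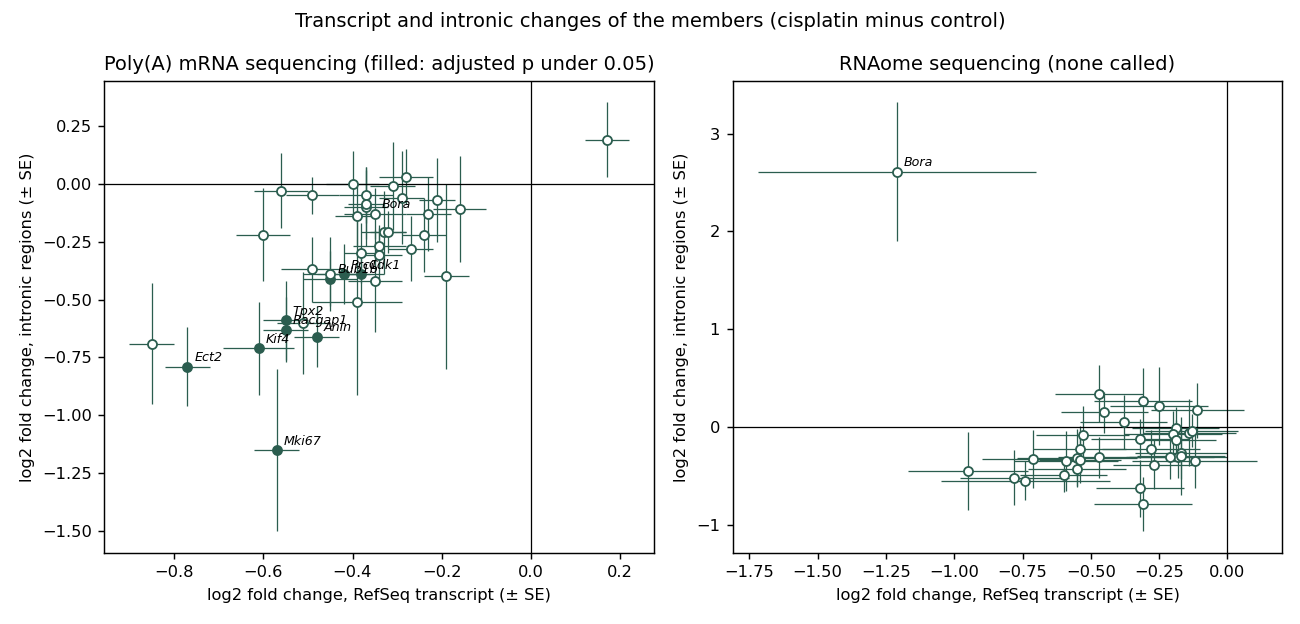
Log2 fold change of intronic counts (vertical) against that of the RefSeq transcript (horizontal), cisplatin minus control with standard errors, for 39 genes in mRNA sequencing (left) and 34 in RNAome sequencing (right, wider axes). Most points lie below 0 on both axes. Filled points passed the test for introns, 9 on the left and 0 on the right, where Bora stands alone at 2.61.

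The log2 change was also read against the genomic span of the gene. In mRNA sequencing the Spearman correlation was -0.49 over the 41 genes and -0.34 over 12929 genes, and in RNAome sequencing it was -0.22 over the 41 and -0.23 over 9119 genes. With the GC content of the transcript the mRNA change had a correlation of 0.22 over the 41 genes and 0.33 over the 12929. These are descriptions across genes of the same libraries. Members under 10 kb had a median of -0.31 (9 genes), those from 10 to 30 kb -0.37 (15 genes), those from 30 to 50 kb -0.45 (11 genes) and those over 50 kb -0.50 (6 genes). All genes of the same classes stood at 0.09, 0.06, 0.01 and -0.18. The member median lay below that of all genes in each class, but Aurkb (0.17) and Melk (-0.16) lay above the all-gene median of theirs. Plk1, at 10.4 kb, and Aurka, at 14.3 kb, were among the lowest members despite short spans, and Melk, at 63.8 kb, was among the highest.

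**Figure D5:**
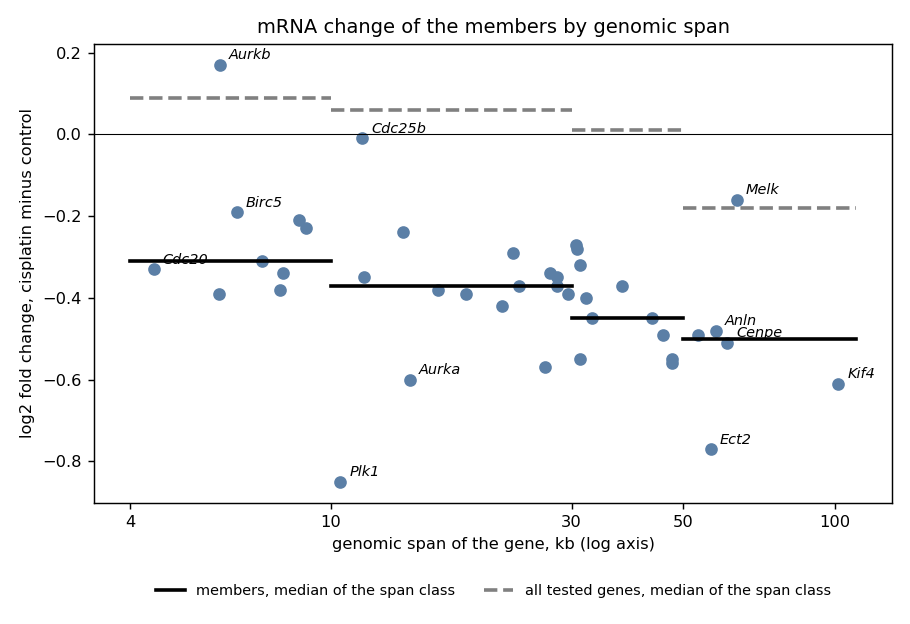
Log2 fold change in mRNA sequencing (vertical) against genomic span in kb (horizontal, log axis) for the 41 genes. Black lines are member medians per span class (-0.31, -0.37, -0.45 and -0.50) and dashed grey lines the medians of all tested genes (0.09, 0.06, 0.01 and -0.18), and each member median lies below its dashed line, while Aurkb and Melk lie above theirs.

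A wider list of 114 other mitosis genes moved less uniformly. Of 113 tested in mRNA sequencing, 62 fell and 15 rose, against 19.2% and 18% of all genes, with a median of -0.19. The 4 with the smallest adjusted p all fell. Mad1l1, a spindle checkpoint protein, had 26.9, 29.0 and 23.1 CPM after cisplatin and 55.0, 62.2 and 59.4 CPM in controls (-1.16 ± 0.09, adjusted p = 4.14e-07), a larger fall than that of any of the 41. Stag1, a cohesin subunit, changed by -0.92 ± 0.06, Clasp1, a microtubule-end protein, by -0.78 ± 0.06, and Rad21, the cohesin kleisin, by -0.51 ± 0.05. In RNAome sequencing 0 of 113 passed in either direction by edgeR, and the median was -0.13. Of the 113, 32 had an unadjusted p under 0.05, against 1378 of all 9978 genes. Without control 8.4.16, 1 passed as lower, against 105 of all 10427 genes, and the median was -0.14. An unadjusted p under 0.05 was then seen in 26, against 1325 of all genes.

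Of 19 transcription factors that act on mitotic genes, 5 fell and 3 rose in mRNA sequencing, against 19.2% and 18% of all genes, with a median of -0.15. In RNAome sequencing 0 of 18 fell and 1 rose, against 1.07% and 0.972% of all genes, with a median of -0.05. Mybl2 (B-Myb), the activator bound to MuvB, had 509.7, 522.0 and 489.6 CPM after cisplatin and 701.3, 680.7 and 693.3 CPM in controls (-0.45 ± 0.04, adjusted p = 2.30e-06). Rbl2 (p130), the pocket protein of DREAM, went up, from 10.9, 10.8 and 8.01 CPM in controls to 20.1, 23.2 and 24.1 CPM (1.18 ± 0.13, adjusted p = 8.24e-06). It was also higher in RNAome sequencing (1.56 ± 0.30, adjusted p = 0.00709), and without control 8.4.16 (1.45, adjusted p = 0.0242), where it was again the 1 factor called. Rb1 rose by 0.78 and E2f7, a repressor, by 0.30. Foxm1 and Lin9, a MuvB subunit, were looked up after the values were seen: Foxm1 had 73.3, 74.4 and 76.1 CPM against 79.6, 80.3 and 79.6 CPM (-0.10 ± 0.06, adjusted p = 0.192) and Lin9 changed by -0.15 ± 0.09 (adjusted p = 0.204).

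Genes of the preceding phases moved little as a list. Of 55 G1/S and replication genes, 10 fell and 4 rose in mRNA sequencing, against 19.2% and 18% of all genes. The median was -0.03, near that of all genes. Pola1, the catalytic subunit of DNA polymerase alpha, fell by 0.66, E2f3 by 0.44 and Mcm6, a subunit of the replicative helicase, by 0.25. Rrm2, a subunit of ribonucleotide reductase, rose by 0.31. In RNAome sequencing 0 of 55 passed by edgeR and 3 had an unadjusted p under 0.05, against 1378 of all 9978 genes. Without control 8.4.16 these counts were 0 and 4, the latter against 1325 of all 10427 genes.

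All 10 p53 arrest genes rose in mRNA sequencing, against 18% of all genes, with a median of 1.15. In RNAome sequencing 6 of 9 rose, against 0.972% of all genes, with a median of 1.14. Without control 8.4.16, 6 of 9 again rose, against 92 of all 10427 genes, with a median of 1.28. This list too was chosen with earlier results of these data known. Cdkn1a (p21), the CDK inhibitor, had 66.6, 78.2 and 82.9 CPM after cisplatin and 30.7, 36.7 and 33.5 CPM in controls (1.16 ± 0.09, adjusted p = 5.44e-07). Plk2, a polo-like kinase induced by p53, rose by 2.30 while its relative Plk1 fell by 0.85. Btg2, an antiproliferative gene, rose by 2.18, Mdm2, the p53 ubiquitin ligase, by 1.29, and Ccng1 (cyclin G1) by 1.14.

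Markers of cell identity were read beside these results. Of 10 ES cell markers, 7 fell in mRNA sequencing, against 19.2% of all genes, and 3 did not pass. The median was -0.30, with single markers between -0.70 and 0.03. Their summed level was 4748 to 4954 CPM after cisplatin and 5476 to 5766 CPM in controls. Pou5f1 (Oct4), their defining gene, was 1 of the 3 that did not pass and does not stand for the 7 that fell. It had 1179, 1238 and 1175 CPM against 1211, 1199 and 1184 CPM, with overlapping groups. Its RNAome values were 77.0, 79.7 and 76.9 CPM against 87.0, 85.0 and 92.8 CPM, without overlap (-0.18 ± 0.16, edgeR adjusted p = 0.708). In RNAome sequencing 0 of the 10 markers passed by edgeR, and 5 had an unadjusted p under 0.05, against 1378 of all 9978 genes. The median was -0.44, and the summed level was 340.7 to 354.3 CPM after cisplatin and 397.9 to 435.6 CPM in controls. Without control 8.4.16, 1 fell, against 105 of all 10427 genes, and the median was -0.30. Of 12 feeder fibroblast markers, 10 were measurable in mRNA sequencing. Of these, 2 rose (Mmp2 and Timp3) and 0 fell, against 18% and 19.2% of all genes. Their summed level was 79.3 to 125.9 CPM after cisplatin and 76.4 to 99.7 CPM in controls, with overlap. The defining collagen gene Col1a1 had a mean of 23.0 CPM after cisplatin and 21.2 CPM in controls, and Lum and Dcn did not pass the filter. In RNAome sequencing only 2 of the 12 feeder markers passed the filter, again Mmp2 and Timp3. Their summed level was 3.84, 4.42 and 3.91 CPM after cisplatin and 1.51, 3.07 and 1.92 CPM in controls, without overlap. Taken singly, the groups were apart in Mmp2 and overlapped in Timp3. Being the same 2 genes that rose in mRNA sequencing, they do not stand for the whole feeder list. Their median was 0.74, and 0 passed the test. Mmp2, a matrix protease, was at 1.04 ± 0.29 (edgeR adjusted p = 0.0796), or 0.87 without control 8.4.16 (adjusted p = 0.174). The part of ES cell state or of feeder cells in the fall of the mitotic genes was not tested.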

How the data were processed

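All values were read counts per RefSeq transcript or genomic region, deposited by the authors as raw numbers. Tools named in the submitters' processing notes are Bowtie, TopHat and edgeR, with no version or role, and the build is mm9. How reads were assigned to features was not stated. Main tests used the expression tables, and the abundance tables served as an alternative. Small RNA libraries were not used. The 41 genes, their roles and the other lists were chosen with earlier results of these data known. Entries were matched to symbols through a RefSeq gene table (GRCm38.p6, names alone). Transcripts present in both assays were preferred, and among these the one with the highest CPM averaged over both assays was kept. Regions lying wholly in an intron of any transcript of GENCODE vM1 (NCBIM37, the same assembly as mm9) were summed per gene. Regions that another gene body overlaps were left out, but exons of other transcripts of the same gene were not. Transcript length and GC content were those of the longest GENCODE vM1 protein-coding transcript of each gene.

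Counts were tested across all genes with edgeR 4.0.16 in R 4.3.3 (two-sided quasi-likelihood test after TMM scaling and filterByExpr, with p adjusted by Benjamini-Hochberg and called under 0.05). Each comparison used the 6 libraries of its assay, 3 per group, and the interaction used 12. SE is the absolute log2 change over the square root of F, and a 95% interval is 1.96 SE on each side. CPM uses TMM-scaled totals of the tested features. DESeq2 1.42.0, other scalings, filters and tables, and leaving out each library were alternatives. The tests were checked on simulated data. Any of the 41 could be named. Values in every library are given for the 2 with the smallest adjusted p in each role, for those higher or not called in mRNA sequencing and for those called in RNAome sequencing, and of other lists up to 4 called genes with the smallest adjusted p are named, plus Cdkn1a, Mdm2, Ccng1, Hprt and Pou5f1.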

Additional observations from a re-analysis of the deposited data

How the results depend on the processing

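In mRNA sequencing 37 of the 40 called genes were called in each of 13 alternatives. The exceptions were Aurkb (adjusted p up to 0.0857), Birc5 (up to 0.0988, with upper-quartile scaling and without cisplatin 8.4.3) and Melk (up to 0.149). DESeq2 called 0 members higher. The member median was -0.36 with a mean of at least 50 counts and -0.33 with upper-quartile scaling. That scaling put the median of all genes at 0.07 and made 60.6% of all calls higher (2077 lower, 3191 higher), against 48.4% with TMM. Leaving out 1 library gave 37 to 39 members lower, 0 to 1 higher and a median from -0.39 to -0.36.

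In RNAome sequencing 0 members were called lower by DESeq2, with the stricter filter (which removed Plk1 and other low genes) or with the replicate block, and 1 with upper-quartile scaling. Leaving out 1 library gave 0 to 3, with a median from -0.37 to -0.28. Of all calls, 47.5% were higher with TMM (107 lower, 97 higher), against 34.6% in DESeq2 (106 and 56). The replicate block gave 115 and 67 (36.8%), and the stricter filter 75 and 51. Removing cisplatin 8.3.3 left 58 and 74, removing cisplatin 8.4.3 left 38 and 40, removing control 8.6.16 left 87 and 46, and removing control 8.4.16 left 105 and 92.

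For introns in mRNA sequencing DESeq2 called 3 members lower (199 lower and 259 higher genes in all, against 501 and 586), and leaving out 1 library gave 5 to 9, with a median from -0.28 to -0.24. For introns in RNAome sequencing the 1 member called higher, with the abundance table, with no filter and without control 8.6.16 or cisplatin 8.4.3, was Bora. Scaling by the RefSeq genes gave a member median of -0.34 and 19 lower and 25 higher genes, against 28 and 51, DESeq2 gave 6 and 8, no filter 39 and 84, and leaving out 1 library 7 to 37 and 10 to 56. Leaving out 1 library gave 0 to 1 member higher and a median from -0.33 to -0.21. The cause of these differences was not tested.

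Samples of both groups share the middle number of the code for 4 and 5 only. The correlations of deviations of these pairs were 0.15 and 0.17 in mRNA and -0.11 and 0.13 in RNAome sequencing, so the numbers were not taken as pairs. A replicate block on them gave 3310 lower and 3095 higher genes in mRNA sequencing and 0 members in RNAome sequencing. The same RNA sample went into both assays, and a replicate block on the sample code gave 13 lower and 0 higher genes in the interaction and changed no member's call. Without control 8.4.16 the interaction gave 30 lower and 2 higher genes, with 0 members.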

Other observations

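Bora held an unusual intronic signal in RNAome sequencing, noticed after the values were seen. The intron at chr14:99449319-99452736 (mm9) had 2163, 2120 and 3699 counts after cisplatin, and 3, 9 and 764 in controls 8.4.16, 8.5.16 and 8.6.16. The other 4 Bora regions held 9 counts or fewer in every library. Summed over its 5 regions, the log2 change was 2.61 ± 0.71 (edgeR adjusted p = 0.0512), and it was 6.84 without control 8.6.16 (adjusted p = 1.72e-07) and 2.05 without control 8.4.16 (adjusted p = 0.220). Over its alternatives the adjusted p ran from 1.72e-07 to 1.000, the latter in DESeq2. In mRNA sequencing the Bora introns showed no such difference, at 230.0, 200.6 and 174.2 CPM against 203.8, 243.0 and 212.5 CPM (-0.13 ± 0.11, adjusted p = 0.515). What RNA maps to this intron was not tested.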
